A study of Mus musculus with 8 samples.

Results

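The 10 genes described here, *Trp63*, *Klf4*, *Klf5*, *Tfap2a*, *Tfap2c*, *Grhl2*, *Grhl3*, *Ovol1*, *Sox2* and *Pitx1*, encode transcription factors associated with keratinocyte identity, and they were followed in ATAC-seq peak lists of mouse cutaneous squamous cell carcinoma (SCC) cells. ATAC-seq marks open chromatin by the insertion of sequencing adapters with the transposase Tn5, and a peak is a stretch in which insertions exceeded the local background. For each gene, all peaks were read out that lay in the gene body or in the 50 kb upstream of it. Overlapping peaks (1 bp or more) from any of the 8 libraries were joined into regions, 37 of them at these 10 of 21938 annotated protein-coding genes and among 69399 in the genome. Every one of the 10 genes had a region.

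The cells came from tumors induced with DMBA and TPA in K14CreER FAKflox/flox FVB mice, carry Ha-Ras as the driver gene, and lost focal adhesion kinase (FAK, a non-receptor tyrosine kinase encoded by *Ptk2*) through 4-hydroxytamoxifen given in culture. K14CreER places the recombinase under a promoter of basal keratinocytes. FAK-/- cells were compared with cells made from a FAK-/- clone by retroviral transduction of wild-type FAK (FAK-WT), of FAK with arginine-to-alanine changes that impair nuclear localization (FAK-nls) or of kinase-deficient FAK with a lysine-to-arginine change (FAK-kd), so all 4 lines share the origin, the oncogene and the recombination. Each line had 2 libraries. The study calls them biological replicates. The peak lists of FAK-WT replicate 2 and of both FAK-nls libraries carry a further letter in their names, and whether these were repeat preparations is not given in the sources used here. Because all re-expressing lines go back to a single clone, differences between lines cannot be told apart from differences between cultures derived from it.

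The factors belong to several families that act together in the stratified epithelium. p63, encoded by *Trp63*, is required for the epidermis to form, and its ΔN isoforms, which start from an internal promoter, predominate in basal keratinocytes. AP-2α and AP-2γ (*Tfap2a*, *Tfap2c*), KLF4 and KLF5, and the grainyhead-like factors GRHL2 and GRHL3 control epithelial genes, barrier formation and differentiation. OVOL1 acts as a repressor during differentiation. SOX2 is a stem cell factor that is also expressed in SCC, and PITX1 is a homeodomain factor of hindlimb and oral epithelium.

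The sequences below are the ones to which the results return, and they are given as the mm10 forward strand with the chromosome and the first and last base. The central 300 bases of regions are shown for 2 neighboring regions near the ΔN start of *Trp63*. The first had the highest single fold enrichment at that gene. Also shown are those of the 2 regions that the FAK-WT pair called and the other 6 libraries did not. The 250 bases before a transcript start are shown for *Klf5*, whose promoter had the best ranks, and for the ΔN start of *Trp63*, whose promoter was not called. Capitals mark exact matches on either strand to the motifs that were searched, which are defined with the motif counts.

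Trp63 intron, 24 kb upstream of the ΔN start, chr16:25777515-25777814: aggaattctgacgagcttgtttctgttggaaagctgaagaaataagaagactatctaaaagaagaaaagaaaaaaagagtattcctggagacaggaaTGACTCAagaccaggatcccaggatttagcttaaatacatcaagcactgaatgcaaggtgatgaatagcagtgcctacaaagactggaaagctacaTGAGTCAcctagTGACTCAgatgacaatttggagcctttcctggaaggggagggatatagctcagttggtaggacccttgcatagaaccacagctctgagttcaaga
Trp63 intron, 22 kb upstream of the ΔN start, chr16:25780175-25780474: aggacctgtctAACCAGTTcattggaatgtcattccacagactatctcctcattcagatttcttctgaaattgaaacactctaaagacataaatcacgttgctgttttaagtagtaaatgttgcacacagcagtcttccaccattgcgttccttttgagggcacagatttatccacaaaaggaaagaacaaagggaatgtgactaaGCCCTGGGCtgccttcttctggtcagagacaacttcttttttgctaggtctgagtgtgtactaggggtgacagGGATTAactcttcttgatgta
Sox2, 14 kb upstream, chr3:34636186-34636485: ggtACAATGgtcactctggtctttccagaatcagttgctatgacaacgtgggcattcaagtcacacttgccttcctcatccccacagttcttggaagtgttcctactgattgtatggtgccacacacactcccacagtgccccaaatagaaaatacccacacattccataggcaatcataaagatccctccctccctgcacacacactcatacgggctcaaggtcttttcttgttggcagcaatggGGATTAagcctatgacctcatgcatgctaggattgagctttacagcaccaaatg
Grhl2, 32 kb upstream, chr15:37200782-37201081: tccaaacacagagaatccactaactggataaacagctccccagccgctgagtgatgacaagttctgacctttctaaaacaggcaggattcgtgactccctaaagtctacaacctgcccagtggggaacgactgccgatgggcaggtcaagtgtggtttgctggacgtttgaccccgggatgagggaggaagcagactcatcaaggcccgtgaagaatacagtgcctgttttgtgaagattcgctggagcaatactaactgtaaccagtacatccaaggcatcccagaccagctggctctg
Klf5, before the start of Klf5-201, chr14:99298441-99298690: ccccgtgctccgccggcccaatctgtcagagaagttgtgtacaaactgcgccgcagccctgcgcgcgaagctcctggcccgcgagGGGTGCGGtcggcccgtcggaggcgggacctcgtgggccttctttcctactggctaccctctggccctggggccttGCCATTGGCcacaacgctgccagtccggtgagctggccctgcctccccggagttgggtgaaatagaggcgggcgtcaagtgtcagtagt
Trp63, before the start of the ΔN transcript Trp63-201, chr16:25801666-25801915: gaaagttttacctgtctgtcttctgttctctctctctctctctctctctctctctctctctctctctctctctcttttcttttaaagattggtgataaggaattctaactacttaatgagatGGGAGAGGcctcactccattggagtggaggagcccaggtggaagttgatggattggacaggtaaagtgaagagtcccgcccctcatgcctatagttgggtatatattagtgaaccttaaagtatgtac

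The lists held between 24402 peaks (FAK-nls replicate 1) and 53728 peaks (FAK-WT replicate 1), and the read depth behind them was not used here. The 10 genes had 27 and 15 regions called in the FAK-WT libraries (replicates 1 and 2), 20 and 16 in FAK-/-, 10 and 10 in FAK-nls, and 13 and 19 in FAK-kd. The order of these numbers was close to that over all 69399 regions, of which 77.0% and 55.9% were called in the FAK-WT libraries, 61.7% and 50.4% in FAK-/-, 34.9% and 35.7% in FAK-nls, and 47.1% and 65.8% in FAK-kd. When the 24383 strongest peaks by −log10 p were taken from each list, the same regions were called 7 and 6 times in FAK-WT, 10 and 9 times in FAK-/-, 10 and 10 times in FAK-nls, and 12 and 9 times in FAK-kd. FAK-WT, the line with the most called regions over all peaks, then had the fewest. The share of all regions called at equal peak number is not given here, so this order is not read as particular to the 10 genes. The part of list size in the differences between lines was not tested. Peaks are given below with their fold enrichment, the ratio of coverage to the local background averaged over the peak, and with their rank by −log10 p as a percentage of the library's list, in which a low percentage is a strong peak. Fold enrichments given by library are not centred, and libraries differed in level. Over the 17917 regions called in every library, the median was 5.59 and 4.83 in FAK-WT and 4.97 and 4.66 in FAK-/-. It was 4.50 and 4.68 in FAK-nls, and 4.70 and 5.53 in FAK-kd. A call in a bulk library does not separate few cells with open chromatin from weak opening in every cell.

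**Figure D1:**
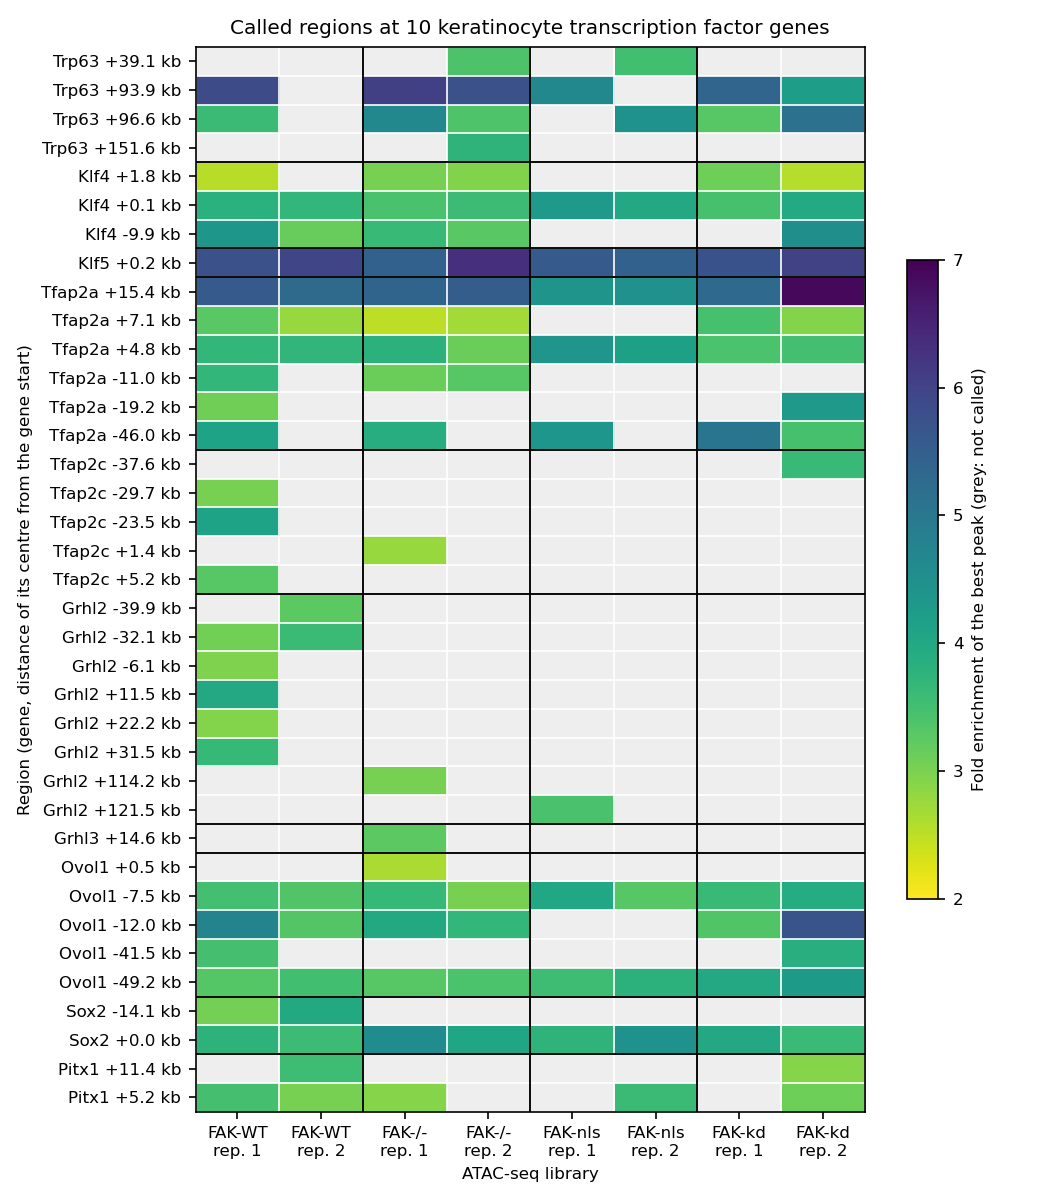
Fold enrichment of the best peak of each of the 37 regions (rows, named by gene and by the distance of the region's centre from the gene start) in the 8 libraries (columns), with grey for a region not called. The promoters of *Klf4*, *Klf5* and *Sox2* and 2 regions of *Tfap2a* were filled across all 8 libraries. So were the *Ovol1* rows that lie at starts of its neighbors *Ap5b1* and *Kat5*. In contrast, *Tfap2c*, *Grhl2* and *Grhl3* showed scattered calls.

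A promoter was the window that runs from 500 bp before to 2000 bp after an annotated transcript start. Promoters were called in all 8 libraries for 4 of the 10 genes, *Klf4*, *Klf5*, *Tfap2a* and *Sox2*. Over all protein-coding genes the share was 41.9%. In no library was a promoter called for *Trp63*, *Grhl2* and *Grhl3*, 3 of 10 genes where 40.6% of all genes had none. The *Pitx1* promoter was called in 5 libraries, and those of *Tfap2c* and *Ovol1* were each called in FAK-/- replicate 1 alone. Both shares were near those of all genes. With all promoter windows of a gene counted as one, no gene of the 10 was called in both libraries of one line and in neither library of another.

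*Trp63* (chromosome 16, 25683763 to 25892102, forward strand) had no called peak at either of its promoters, the upstream start used by the TA isoforms at 25683763 and the ΔN start at 25801916. The stretch printed before the ΔN start has a KLF match, in sequence that no library called. The called regions of *Trp63* lay in introns. Like the other regions described here that are neither promoters nor of the FAK-WT pattern, they were chosen for description after their values were seen. The *Trp63* region with the highest single fold enrichment (chromosome 16, 25777383 to 25777946) was centred at -24252 bp from the ΔN start. It was called in 6 libraries. Its fold enrichment was 5.84 in FAK-WT replicate 1, 6.06 and 5.76 in FAK-/-, 4.67 in FAK-nls replicate 1, and 5.36 and 4.22 in FAK-kd. It was absent from the lists of FAK-WT replicate 2 and FAK-nls replicate 2, so both lines had one library with and one without it. It ranked between the top 17.6% and the top 41.3% of the lists, and it remained called in the same 6 libraries among the strongest 24383 peaks. The printed 300 bases hold 3 AP-1 matches, at bases 98 to 104, 194 to 200 and 206 to 212. Of all regions, 34.2% had an AP-1 match in a central window of that length and 0.610% had 3 or more.

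The neighboring region (chromosome 16, 25780015 to 25780634), centred at -21592 bp from the ΔN start, was also called in 6 libraries but in another combination. Its fold enrichment was 3.59 in FAK-WT replicate 1, 4.67 and 3.37 in FAK-/-, 4.44 in FAK-nls replicate 2, and 3.29 and 5.14 in FAK-kd. In FAK-kd replicate 2 this region was the stronger of the 2, at the top 20.9% against the top 40.8% of the list. FAK-WT replicate 2 and FAK-nls replicate 1 had no call there. At equal peak number it was called in 3 libraries, FAK-/- replicate 1, FAK-nls replicate 2 and FAK-kd replicate 2. Its 300 bases carry a match to the GRHL motif, a TFAP2 match and a PITX match, and it is the only one of the 37 regions with a GRHL match. In windows of that length 3.84% of all regions had a GRHL match, 12.6% a TFAP2 match and 8.37% a PITX match. Further regions were called 39149 bp into the gene, in FAK-/- replicate 2 and FAK-nls replicate 2, and 33487 bp downstream of the ΔN start, in FAK-/- replicate 2 alone. Over the 258 kb of the gene and its upstream sequence, FAK-WT had 2 and 0 called regions and FAK-/- had 2 and 4. FAK-nls had 1 and 2, and FAK-kd had 2 and 2.

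*Tfap2a* (chromosome 13, 40715302 to 40738376, reverse strand) had the highest or joint highest number of called regions in every library, 6 and 3 in FAK-WT, 5 and 4 in FAK-/-, 3 and 2 in FAK-nls, and 4 and 5 in FAK-kd. The region with the highest fold enrichment in every library was at chromosome 13, 40722545 to 40723485. It lay in the 3' part of the gene over a coding exon, where an exon of the transcript Gm47061 is also annotated. By rank it was behind the promoter region in both FAK-nls libraries. Its fold enrichment was 5.58 and 5.28 in FAK-WT, 5.39 and 5.53 in FAK-/-, 4.41 and 4.48 in FAK-nls, and 5.30 and 6.90 in FAK-kd. Both FAK-nls libraries were below the other 6. The promoter region called in all 8 libraries (40732933 to 40734229) showed the opposite order, with 4.39 and 4.15 in FAK-nls above the 3.12 to 3.79 of the other 6 libraries, and its peaks in FAK-nls were 320 and 349 bp long against 389 to 1273 bp elsewhere. A second promoter region at internal starts (40730810 to 40731792) was called in the other 6 libraries with a fold enrichment of 2.49 to 3.45 and in neither FAK-nls library. It ranked at the top 62.3% to 97.1% of the lists, and only FAK-kd replicate 1 kept it at equal peak number. The 3 upstream regions were called in 3, 2 and 5 libraries.

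The paralog *Tfap2c* (chromosome 2, 172549593 to 172558622, forward strand) had 5 regions, each called in a single library, of which 3 were called in FAK-WT replicate 1, 1 in FAK-/- replicate 1 and 1 in FAK-kd replicate 2. The promoter call in FAK-/- replicate 1 had a fold enrichment of 2.77 and ranked at the top 99.3% of its list. None of the 5 remained among the 24383 strongest peaks of any library.

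*Klf5* (chromosome 14, 99298691 to 99315036, forward strand) had a single region, its promoter (99298252 to 99299433), and this had the best rank of the 37 regions in every library. Its fold enrichment was 5.75 and 5.95 in FAK-WT, 5.45 and 6.32 in FAK-/-, 5.59 and 5.45 in FAK-nls, and 5.74 and 6.03 in FAK-kd. Before centring, both FAK-nls values were below those of FAK-WT and FAK-kd, while the range of FAK-/- overlapped each other line. Centred on the library medians, the log2 difference of FAK-WT minus FAK-nls was -0.10 ± 0.15 (SE). The peak ranked between the top 1.95% and the top 15.2% of the lists. The 250 bases before the start, printed above, hold a KLF match and a TFAP2 match, and of such windows before the 54329 protein-coding transcript starts 51.3% had a KLF match and 15.9% a TFAP2 match. *Klf4* (chromosome 4, 55527143 to 55532466, reverse strand) had its promoter (55531533 to 55533200) called with 3.80 and 3.69 in FAK-WT, 3.44 and 3.58 in FAK-/-, 4.30 and 3.98 in FAK-nls, and 3.46 and 3.95 in FAK-kd. The FAK-nls libraries were the highest of the 8.

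The other 2 *Klf4* regions were not called in FAK-nls. The first, in the gene at 1824 bp from the start, was called in FAK-WT replicate 1, both FAK-/- and both FAK-kd libraries with a fold enrichment of 2.53 to 3.11. The second (chromosome 4, 55541472 to 55543164), at -9852 bp, was called in FAK-WT with 4.36 and 3.16, in FAK-/- with 3.62 and 3.28 and in FAK-kd replicate 2 with 4.50. Its peaks ranked at the top 56.0% to 96.8%, and no library kept it at equal peak number.

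*Grhl2* (chromosome 15, 37233036 to 37363569, forward strand) had 8 regions, 5 called in FAK-WT replicate 1, 2 in FAK-WT replicate 2, 1 each in FAK-/- replicate 1 and FAK-nls replicate 1, and none in FAK-/- replicate 2, FAK-nls replicate 2 and both FAK-kd libraries. A single region was called in more than 1 library. It lies in intergenic sequence at -32105 bp (chromosome 15, 37200684 to 37201179), with a fold enrichment of 3.06 and 3.60 in the FAK-WT libraries and no call in the other 6. When a call had to cover 50% of a region, it no longer had this pattern. These peaks were 496 and 208 bp long and ranked at the top 93.1% and 72.0% of their lists, and neither remained among the 24383 strongest. The printed 300 bases have no match to any of the 8 motifs. *Grhl3* (chromosome 4, 135541888 to 135573630, reverse strand) had 1 region, over a coding exon, called in FAK-/- replicate 1 with 3.25.

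*Sox2* (chromosome 3, 34650405 to 34652461, forward strand) is a single-exon gene within the long noncoding transcript *Sox2ot*. Its promoter (34649449 to 34651395) was called with 3.77 and 3.57 in FAK-WT, 4.57 and 4.05 in FAK-/-, 3.75 and 4.46 in FAK-nls, and 3.98 and 3.60 in FAK-kd. Both FAK-/- libraries were above both FAK-WT libraries, and FAK-nls and FAK-kd overlapped FAK-WT. The other region, in an intron of *Sox2ot* at -14070 bp (34636091 to 34636579), had peaks of 3.04 and 3.97 in the FAK-WT libraries and none in the other 6. It ranked at the top 97.4% and 65.6%, and it was not among the 24383 strongest peaks of either library. The printed sequence carries the SOX motif at bases 4 to 9 and the PITX motif at bases 247 to 252, and 15.7% and 8.37% of all regions had these in the same window.

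*Ovol1* (chromosome 19, 5549136 to 5560646, reverse strand) had 5 regions, but those called most often belong to its neighbors. The regions called in all 8 libraries were centred 95 bp from a start of *Ap5b1* and 184 bp from a start of *Kat5* (7 and 3 libraries at equal peak number), and a region called in FAK-WT replicate 1 and FAK-kd replicate 2 lay at a start of *Rnaseh2c*. The *Ovol1* promoter itself was called in FAK-/- replicate 1 with 2.64, at the top 99.6% of that list. The remaining region (5572393 to 5572847), -11974 bp from the *Ovol1* start and 4546 bp from that of *Ap5b1*, was called in FAK-WT with 4.74 and 3.33, in FAK-/- with 3.96 and 3.68 and in FAK-kd with 3.35 and 5.70, and in neither FAK-nls library. It ranked at the top 17.4% to 64.4%, and at equal peak number it was still called in 5 libraries, all but FAK-WT replicate 2 of those 6. *Pitx1* (chromosome 13, 55825051 to 55836192, reverse strand) had a promoter region (55830193 to 55831695) called with 3.47 and 3.03 in FAK-WT, 2.90 in FAK-/- replicate 1, 3.60 in FAK-nls replicate 2 and 3.11 in FAK-kd replicate 2, and at equal peak number in FAK-nls replicate 2 alone. Its second region, at the 3' UTR, was called in FAK-WT replicate 2 and FAK-kd replicate 2, and the FAK-WT peak itself lay wholly beyond the end of the gene.

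**Figure D2:**
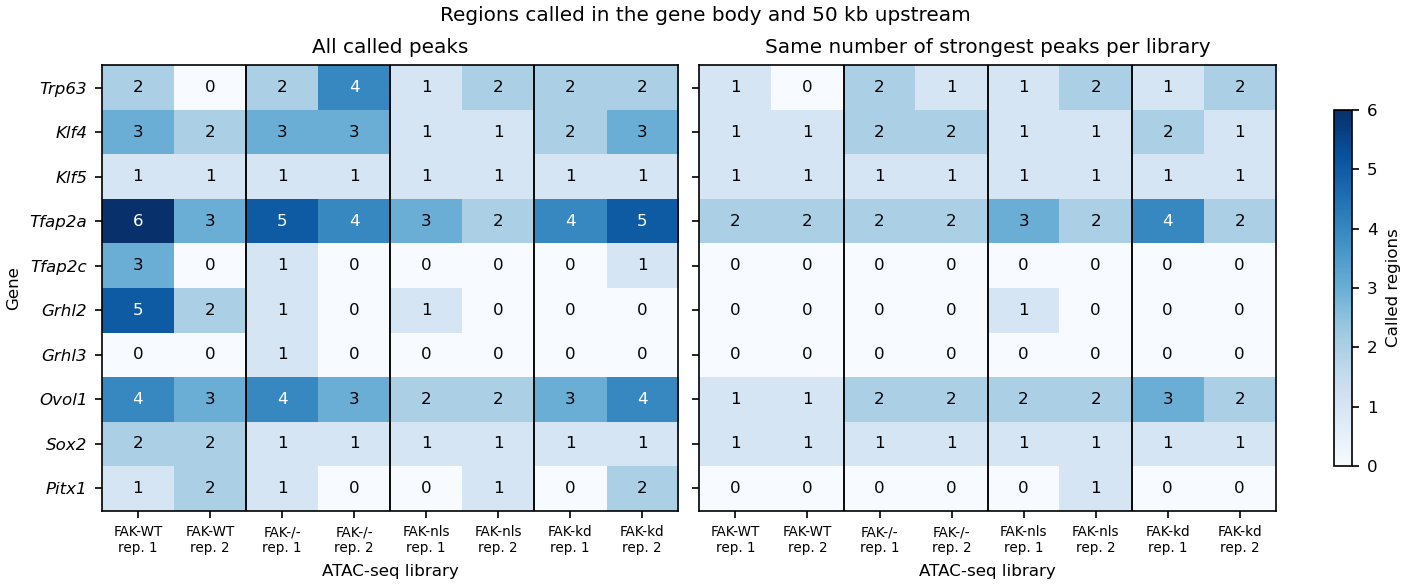
Number of called regions in the body and 50 kb upstream of each gene (rows) in the 8 libraries (columns), with all called peaks on the left and the 24383 strongest peaks of each library on the right. The 5 *Grhl2* regions and 6 *Tfap2a* regions of FAK-WT replicate 1 became 0 and 2 at equal peak number.

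The study compared FAK-WT cells with each other line, to ask which chromatin depends on FAK, on its nuclear localization or on its kinase activity. Against FAK-/-, 2 of the 37 regions had a peak in each FAK-WT library and none in FAK-/-, those upstream of *Sox2* and *Grhl2*, where 4.89% of all regions had this pattern. Against FAK-nls it was 5 of 37, with 15.3% of all regions. To the same 2 regions came the *Klf4* region at -9852 bp, the internal *Tfap2a* promoter and the region at -11974 bp from the *Ovol1* start. Against FAK-kd it was 2 of 37, again *Sox2* and *Grhl2*, with 4.33% of all regions. The 3 comparisons share the FAK-WT libraries. The opposite pattern, present in the other line's pair and absent from FAK-WT, was shown by none of the 37 regions against FAK-/- (1.18% of all regions), FAK-nls (0.248%) or FAK-kd (0.830%). With 2 libraries against 2 an exact permutation test cannot give a p below 0.333, so these counts carry no test.

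The regions upstream of *Sox2* and *Grhl2* had peaks in the FAK-WT pair and in none of the other 6, a pattern of 2 of 37 regions here and of 1.99% of all regions. With the strongest 24383 peaks per library, 16 of the 37 regions had a call in any library. None of these 16 had the FAK-WT pattern against any line. The opposite pattern was shown by 1 region against FAK-/- (*Klf4* at 1824 bp), by 1 against FAK-nls (the *Kat5* promoter) and by 0 against FAK-kd. FAK-WT replicate 2 had the smaller FAK-WT list. Leaving it out, over all peaks, raised the counts of the FAK-WT pattern to 11 against FAK-/-, 16 against FAK-nls and 10 against FAK-kd. Leaving out FAK-WT replicate 1 gave 4, 7 and 3. With a FAK-WT library left out, the pattern needs a call in the remaining one alone, so these counts could not fall. The shares of all regions at equal peak number or without a library are not given here. These counts are therefore not read as particular to the 10 genes. Of the 37 regions, 7 were called in all 8 libraries (18.9%, with 25.8% of all regions) and 15 in a single library (40.5%, with 28.6% of all regions). Of these 15, 7 were called in FAK-WT replicate 1, the longest list, and the peaks of the 15 ranked at a median of the top 93.0% (67.3% to 99.6%).

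Lines were further compared by the number of called regions per gene, with an exact permutation test over every division of the 8 libraries into 4 pairs. None of the 10 genes had a p under 0.05, where 2.16% of 18033 genes with a region did. With the equal counts among their libraries 8 of the 10 could not reach 0.05, so the test bears on *Klf4* and *Grhl2* alone, whose counts allow a p of 0.0286. Of all genes 23.8% had counts that could pass, and 9.08% of these did. The smallest p was 0.143, for *Sox2* with 2 and 2 regions in FAK-WT and 1 in each other library and for *Grhl2* with the numbers given above (exact permutation test, adjusted p = 0.747 over all genes). For *Sox2* this was the smallest p that its counts allow. When the covered length replaced the number of regions, *Sox2* (exact permutation test, p = 0.00952) and *Klf4* (p = 0.0381) passed 0.05 before adjustment, as did 13.2% of all genes, and after adjustment over all genes their p-values were 0.346 and 0.356.

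**Figure D3:**
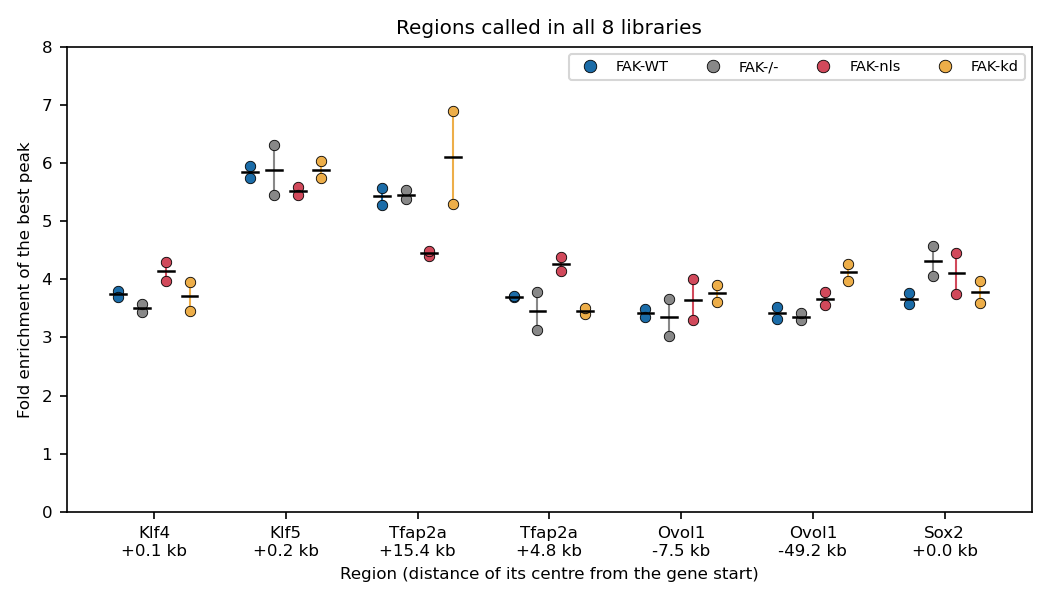
Fold enrichment of the best peak in the 7 regions called in all 8 libraries, with 1 point per library, a black bar for the mean and a line between the 2 libraries of a line. At the *Tfap2a* promoter both FAK-nls libraries (4.39 and 4.15) were above the other 6, and at its coding exon region (4.41 and 4.48) they were below.

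Where a region was called in every library, its fold enrichment was compared between lines with limma on log2 fold enrichment centred on the median of each library, fitted over all 17917 such regions. None of the 7 tested regions passed an adjusted p of 0.05 against FAK-/- (0.0279% of all regions did), FAK-nls (0% of all regions) or FAK-kd (0.0167%). With log2 pileup in place of fold enrichment none of the 7 passed either, while 97, 320 and 58 of all regions did. The smallest limma adjusted p-values were 0.608, 0.203 and 0.797. Before adjustment, 1 of 7 regions was under 0.05 against FAK-/- (7.68% of all regions), 3 of 7 against FAK-nls (15.9%) and 1 of 7 against FAK-kd (6.22%).

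In each of these 5 differences, under 0.05 before adjustment but not after it, FAK-WT was lower. For the *Sox2* promoter the log2 difference of FAK-WT minus FAK-/- was -0.34 ± 0.15 (SE, limma adjusted p = 0.608), and minus FAK-nls it was -0.34 ± 0.15 (adjusted p = 0.291). The *Tfap2a* promoter differed from FAK-nls by -0.39 ± 0.14 (limma adjusted p = 0.203) and the *Klf4* promoter by -0.32 ± 0.14 (adjusted p = 0.267). The *Kat5* promoter upstream of *Ovol1* differed from FAK-kd by -0.30 ± 0.14 (limma adjusted p = 0.797). At the *Tfap2a* coding exon region, where FAK-nls was lowest before centring, FAK-WT minus FAK-nls was 0.11 ± 0.14 (limma adjusted p = 0.752). *Klf5* differed by -0.11 ± 0.15, -0.10 ± 0.15 and -0.04 ± 0.15 from FAK-/-, FAK-nls and FAK-kd. These 5 differences depended on the settings. Without FAK-WT replicate 1, no difference against any line was under 0.05 before adjustment. With quantile scaling 1, 1 and 0 regions were under 0.05 before adjustment against FAK-/-, FAK-nls and FAK-kd, and with the replicate block 1, 3 and 0. Against FAK-/- the number was 0 without either one of the FAK-/- libraries, and against FAK-kd it was 0 in every alternative except without FAK-WT replicate 2 and without FAK-kd replicate 2, where it was 1. Without centring none was under 0.05, with the median of all regions then 0.10, 0.15 and 0.01 higher in FAK-WT. The 5 differences kept their direction without centring (-0.23 and -0.16 for *Sox2*, -0.21 for *Tfap2a*, -0.14 for *Klf4* and -0.27 for *Kat5*), while *Klf5* against FAK-nls turned to 0.08. Peak length moved with these values. Over the 17917 regions the median length of the best peak was 804 and 725 bp in FAK-WT and 541 and 528 bp in FAK-nls, a fold enrichment is averaged over the peak, and the part of length in the differences was not tested.

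The 37 regions were richer in GC than all regions, with a median of 52.4% against 48.0% in the central 500 bp. By annotation 15 were upstream, 10 intronic, 9 at promoters, 2 over coding exons and 1 at a UTR. Motifs were sought there as exact matches on both strands, namely TGANTCA for AP-1, AACNNGTT for GRHL, GCCNNNGGC for TFAP2, CCNCNCCC for KLF, ACAATG for SOX, TAATCC for PITX, CCGTTA for OVOL, and a pair of CATG with 6 bases between them for p63, where N is any base, and matches of different motifs could share bases. The KLF motif was found in 70.3% of the 37 regions and 46.3% of all regions, and the TFAP2 motif in 35.1% and 18.6%. AP-1 matches were in 29.7% of the 37 and 42.3% of all regions, SOX matches in 16.2% and 24.2%, PITX matches in 16.2% and 14.2%, OVOL matches in 5.41% and 3.48%, and the GRHL match in 2.70% and 6.60%. None of the 37 held the p63 pair of motifs, which 1.70% of all regions did. These shares are descriptions of letters, and KLF and TFAP2 motifs are rich in G and C.

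A further 30 transcription factor genes of the epidermis were read out in the same way. Their 163 regions included 46 called in all 8 libraries and 47 called in 1, and the FAK-WT pattern was shown by 6 against FAK-/- (3.68%, with 4.89% of all regions), 29 against FAK-nls (17.8%, with 15.3%) and 11 against FAK-kd (6.75%, with 4.33%), and the opposite one by 2, 0 and 1 (1.23%, 0% and 0.613%, with 1.18%, 0.248% and 0.830% of all regions). None of the 29 of these genes with a region had a p under 0.05 for a line effect on the number of regions in the exact permutation test, which 7 of them could reach, where 9.08% of all genes that could reach it did. Per gene, the 10 genes had a median of 3.50 regions, the further 30 had 4.50 and all protein-coding genes 4.00.

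The label of the cells was checked against promoters of defining genes. Of 16 keratinocyte markers, the promoter of *Itga6* was called in all 8 libraries (6.25% of the list), and 9 were called in none (56.2%), *Krt5*, *Krt15*, *Krt17*, *Krt6a*, *Dsg3*, *Dsp*, *Cdh1*, *Sfn* and *Perp*. *Krt14* was called in FAK-/- replicate 2 alone. Between 1 and 6 of the 16 were called in a library. Of 11 fibroblast markers 6 were called in all 8 libraries (54.5%, with 41.9% of all genes) and between 6 and 9 in a library, while *Dcn* and *Lum* were called in none (18.2%, with 40.6% of all genes). At equal peak number 3 of the 11 were called in all 8 libraries, as were 1 of the 16 keratinocyte markers and 7163 of all 21938 genes. Of 6 immune and 4 endothelial markers none was called in all 8, and of 6 melanocyte markers *Mitf* and *Pmel* were. Few keratinocyte marker promoters were thus called in cells labelled as cutaneous SCC. The 10 genes did not share this. Promoters of 3 of them (*Trp63*, *Grhl2* and *Grhl3*) were not called in any library, with 40.6% of all genes. Promoters of 4 (*Klf4*, *Klf5*, *Tfap2a* and *Sox2*) were called in all 8, with 41.9% of all genes. Both shares were near those of all genes. An open promoter is not expression, and the part of cell state in the values above was not tested.

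**Figure D4:**
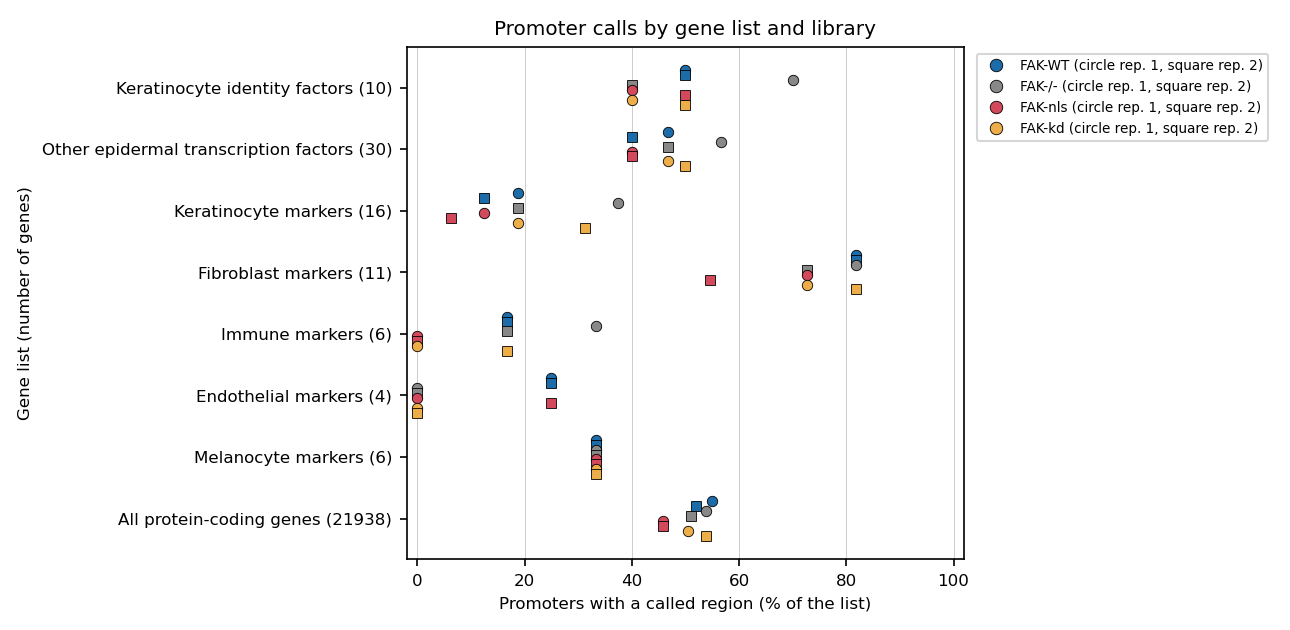
Share of promoters with a called region for each gene list (rows, with the number of genes) in each library (points colored by line, circles for replicate 1 and squares for replicate 2). Fibroblast marker promoters were called more often than keratinocyte marker promoters in every library, with 6 to 9 of 11 against 1 to 6 of 16.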

How the data were processed

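ATAC-seq was performed on SCC cells of 4 lines with 2 libraries each, and libraries were grouped by the labels. The authors aligned the reads to mm10 with bcbio and called broad peaks in each library separately with MACS2 (version 2.1.1 in the submitters' processing notes), without pooling. The deposited files give the position of each peak, its pileup as a coverage signal, its −log10 p-value and −log10 q-value, and its fold enrichment, the ratio of the pileup to the local background. The part of read depth in the number of calls was not tested. There are no counts per region, so calls were compared as present or absent.

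Peaks outside the autosomes, X and Y were dropped (15 to 25 per library), and the rest were merged across libraries. A library called a region if it had a peak there, and its best peak by −log10 p gave the values. Genes, transcripts and coding sequence were taken from GENCODE vM21, and sequences from the GRCm38 genome, which has the coordinates of mm10. Fold enrichment was tested with limma 3.58.1 (R 4.3.3, trend) with Benjamini-Hochberg adjustment over all regions called in 8 libraries and a threshold of 0.05, and regions per gene by the exact permutation test. Both were tried on simulated data, and the outcome is not given here. Replicate numbers did not pair the libraries (correlation of deviations -0.228 to 0.0828). The 10 genes are all named, with promoter regions and regions that differ by FAK-WT pattern. The genes, lists and tests were chosen with earlier results of these data known. The alternatives were equal numbers of peaks, a −log10 q of 3 or more, a fixed width of 500 bp, 50% coverage of a region, 10 kb upstream, other scalings and measures, a replicate block, and leaving out each library. Files were read with Python 3.11.15 and pandas 2.3.3.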

Additional observations from a re-analysis of the deposited data

How the results depend on the processing

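The counts of regions with a peak in each FAK-WT library and none in the other line (2, 5 and 2 against FAK-/-, FAK-nls and FAK-kd) depended on the peaks that were used. With equal numbers of strongest peaks they were 0, 0 and 0, with a minimum −log10 q of 3 they were 0, 1 and 0, and with 10 kb upstream 0, 2 and 0. With 50% of a region covered the *Grhl2* region left all 3 counts, so that the count against FAK-kd was 1. Against FAK-/- the *Klf4* region at -9852 bp took its place, and against FAK-nls the promoters of *Pitx1* and *Klf4* replaced it and the internal *Tfap2a* promoter. With peaks set to 500 bp the count against FAK-/- was 3. The added region was that of *Klf4* at -9852 bp, which at this width was also the 1 region counted under the opposite pattern. The opposite counts (0 in each comparison) became 1 against FAK-/- and 1 against FAK-nls with equal numbers of peaks, 1 against FAK-/- with peaks set to 500 bp or with 50% coverage, and 1 against FAK-kd with the minimum q. Leaving out 1 library gave 2 to 11, 5 to 16 and 2 to 10 regions of the FAK-WT pattern, and 0 to 4, 0 to 1 and 0 to 4 of the opposite one. A left-out library loosens the rule for a pattern, so these counts could not fall. The shares of all regions under these alternatives are not given here, and the cause was not tested.

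The number of genes with a line effect, an unadjusted p under 0.05, was 0 except with covered length, where it was 2 (adjusted p-values of 0.346 and 0.356 in the exact permutation test) and 13.2% of all genes passed. By their counts of regions, 8 of the 10 genes could not pass, so a number of 0 does not bear on stability. Of 74 numbers of libraries that called a region, with equal numbers of peaks or the minimum q, 55 changed by more than 1.5 times. Smaller changes were not counted. No limma alternative brought a region of the 10 genes past the threshold in 51 comparisons with FAK-WT, with smallest adjusted p-values of 0.129 to 1.00. These comparisons share fits and libraries, so they are not separate checks. Over all regions the number past it moved with the measure, from 5, 0 and 3 of 17917 against FAK-/-, FAK-nls and FAK-kd to 97, 320 and 58 with log2 pileup and 29, 113 and 13 with log2 of −log10 p. It was 0, 14 and 0 with equal numbers of peaks, 0, 12 and 0 with the minimum q, 1, 0 and 2 with quantile scaling, 0 in each without centring, and 0 to 7, 0 to 3 and 0 to 5 without 1 library. With the replicate block, the smallest adjusted p-values were 0.680, 0.240 and 0.873, no region of the 10 genes passed, and 0 genes had a line effect. Where a library was left out, the lone library of its line was taken to vary like the other lines. The read depth behind the lists was not used here, and an uncalled region can be open below the threshold of the caller.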
